A study of Arabidopsis thaliana with 12 samples.

Results

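The genes described here form a block on the long arm side of the *Arabidopsis thaliana* chromosome 2 centromere. They are the 185 genes of the RNA table, of 16755 in all, whose locus names run from AT2G14000 to AT2G17999, without AT2G14610 (*PR1*) and AT2G16390 (*DRD1*). The block was chosen on the authors' own RNA comparison of *ago4* with Col-0, in which it holds many changed genes. The fold changes and p-values of that comparison are not used here, so nothing below tests how RNA changed in *ago4*. What is described is the level of each gene averaged over the libraries, and the regions of the block that were listed as having chromatin contacts in the mutants. At the low edge of the name range, AT2G14045 just inside had a mean level of 3.31 log2 CPM (reads of the gene scaled to library size) and AT2G13975 just outside had 2.37. At the high edge, AT2G17990 just inside had a mean level of 4.21 log2 CPM and *EMB2296* just outside had 6.45.

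RNA-directed DNA methylation (RdDM) silences transposons and repeats in plants. In this pathway AGO4 is an Argonaute protein that carries small interfering RNAs, and NRPE1 is the largest subunit of RNA polymerase V, whose transcripts AGO4 with its small RNAs recognises in order to bring cytosine methylation to the locus. The study identified target regions of this pathway by methylation in the CHH context, where H is A, C or T, that is lost in the *nrpe1* mutant. Flanks of centromeres in *Arabidopsis* are rich in transposons and pseudogenes and hold fewer genes than the arms.

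All plants were seedlings grown in long days, in the Col-0 background. The mutants were *ago4*, carrying the ago4-1 allele introgressed into Col-0 (a description the labels give for the RNA samples), and *nrpe1*. RNA was sequenced from *ago4* in 3 replicates, and the table sets it against Col-0. Hi-C, which joins and sequences DNA ends that lie close together in the nucleus after cutting with *Dpn*II at GATC, was done in *ago4*, *nrpe1* and Col-0 with 3 replicates each. For each of the 3 *ago4* and 3 *nrpe1* Hi-C libraries there is a list of differentially methylated regions (DMRs), short regions that lose CHH methylation in *nrpe1*, that had contacts. Lists for Col-0 were not analysed here, so each mutant is set against the other mutant and neither against wild type. The study calls the replicates biological without saying how they were grown apart, so p-values measure the spread between these libraries.

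The *AGO4* gene lies on the same chromosome, at chr2:11536502-11542391, 3.71 Mb beyond the end of the block. How much donor DNA the introgressed *ago4* line still carries on chromosome 2, and whether it reaches the block, was not tested. *AGO4* averaged 3.69 log2 CPM over the libraries, which does not check the mutant because the table has no value per library.

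As a check of the tissue, the leaf genes *RBCS1A* and *LHCB1.1* averaged 10.6 and 10.9 log2 CPM, *RCA* 9.38 and *RBCS3B* 9.03. *PYK10*, a gene of roots and hypocotyls, averaged 6.52 log2 CPM. The flower genes *AP3*, *AG* and *AP1* and the seed genes *CRA1* and *SESA1* had no value in the table. Hi-C was done on above ground tissue, and which seedling parts gave the RNA is not stated beyond seedling tissue. In such mixed tissue, fewer cells of a type and less RNA per cell cannot be told apart. Depth per RNA library is unknown. The 6 DMR lists held 207 to 265 regions in *ago4* and 50 to 176 in *nrpe1*.

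The DMRs of the block that were listed most often are shown first. The contact results below count all listed DMRs, and 21 of the 35 *ago4* DMRs of the block were in 1 list only. Of 40 different DMRs in the block, 4 were in all 3 *ago4* lists, and none of these was in an *nrpe1* list. Of all 35 *ago4* DMRs of the block 5.71% were in an *nrpe1* list, and of the *ago4* DMRs elsewhere 26.4%. With shares this low, the absence of 4 DMRs from the *nrpe1* lists is not read as a trait of theirs. The only block DMR in more than 1 *nrpe1* list was at another position, listed in *nrpe1* replicates 2 and 3 and in *ago4* replicate 1. Their sequences, read from the TAIR10.1 assembly on the plus strand, carry any *Dpn*II site GATC in capitals. The 3 short ones are whole, and the 2 long ones are shown as the 150 bases with the most GATC sites.
DMR at chr2:6172578-6172678, in all 3 *ago4* lists, whole: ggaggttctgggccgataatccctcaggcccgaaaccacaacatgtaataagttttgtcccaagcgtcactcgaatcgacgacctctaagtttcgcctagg
DMR at chr2:6328110-6328353, in all 3 *ago4* lists, whole: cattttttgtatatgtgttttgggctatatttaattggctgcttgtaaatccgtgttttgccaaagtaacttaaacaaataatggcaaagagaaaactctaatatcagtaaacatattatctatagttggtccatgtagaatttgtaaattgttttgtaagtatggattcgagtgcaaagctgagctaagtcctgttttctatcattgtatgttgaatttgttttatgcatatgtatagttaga
DMR upstream of *ADC1*, in all 3 *ago4* lists, chr2:7155476-7155625: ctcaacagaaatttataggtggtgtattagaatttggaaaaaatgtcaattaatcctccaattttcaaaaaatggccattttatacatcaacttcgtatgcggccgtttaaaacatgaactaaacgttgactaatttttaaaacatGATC
DMR overlapping AT2G16505, in all 3 *ago4* lists, chr2:7156776-7156925: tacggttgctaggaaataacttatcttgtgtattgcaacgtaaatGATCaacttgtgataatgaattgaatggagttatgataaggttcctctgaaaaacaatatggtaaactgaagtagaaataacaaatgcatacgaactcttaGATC
DMR at chr2:6321132-6321252, in 2 *nrpe1* lists, whole: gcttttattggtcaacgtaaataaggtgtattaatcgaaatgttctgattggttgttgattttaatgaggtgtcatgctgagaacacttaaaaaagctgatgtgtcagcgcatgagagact

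None of the 3 short DMRs holds a GATC, so *Dpn*II does not cut within them. Contacts were assigned to windows of 250 bp, which reach past a short DMR. Counting windows from the first base of the chromosome, those overlapping the DMR at 6172578 held 1 GATC, those of 6321132 held 1, and those of 6328110 held none. The long DMRs at 7155362 and 7156163 overlap a common window, so the same contact could list both. Over all DMRs of the block, 34 of 40 (85%) had a GATC in an overlapped window, against 85.2% of the 501 DMRs elsewhere. In base composition the block DMRs were near the rest, with a median of 31.6% GC against 31.2% elsewhere. CHH sites made up 73.4% of the cytosines in the block DMRs, against 72.5% elsewhere. The block DMRs were shorter, with a median of 347 bp against 414 bp elsewhere, a difference given without a test.

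The block changes in make-up from one end to the other. From the centromere side, successive 500 kb bins held 65, 73, 101 and 123 annotated protein-coding genes. The 185 genes spanned 5906420 to 7828827 on chromosome 2 (1.92 Mb), and comprised 175 protein-coding genes, 8 pseudogenes and 2 noncoding RNAs. The annotation holds 343 protein-coding genes and 146 pseudogenes in the same name range. Of the protein-coding genes 51.0% had a value in the RNA table, against 58.8% in the whole genome. In the equally named range on the centromere side, AT2G10000 to AT2G13999, 21.9% of 128 protein-coding genes had a value and there were 375 pseudogenes. In the range on the other side, AT2G18000 to AT2G21999, 56.7% of 427 protein-coding genes had a value and there were 31 pseudogenes. The pseudogene share of annotated loci was 41.0%, 32.1%, 21.2% and 6.62% in successive 500 kb bins of the block, beginning at the centromere side. The bins held 31, 31, 54 and 69 of the members.

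The RNA level of the block genes was near that of other genes. The median was 2.81 log2 CPM in the block (quartiles 1.58 and 3.96) and 2.87 log2 CPM in the 16570 genes outside it (quartiles 1.70 and 4.07). Per kb of exon, the scale on which genes can be compared with each other, the medians were 1.91 log2 CPM per kb in the block and 1.93 outside. The centromere side range, with 54 measured genes, had a median of 1.15 log2 CPM per kb, and the far side range, with 251, had 1.93. In the block 19 genes (10.3%) reached 5 log2 CPM, against 12.5% outside. The 8 measured pseudogenes had a median of 0.38 log2 CPM. By 500 kb bin, the median level per kb was 1.77, 1.79, 2.06 and 1.91 log2 CPM per kb, counted outward. These are single values averaged over libraries, with no spread, so no difference among them was tested.

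**Figure D1:**
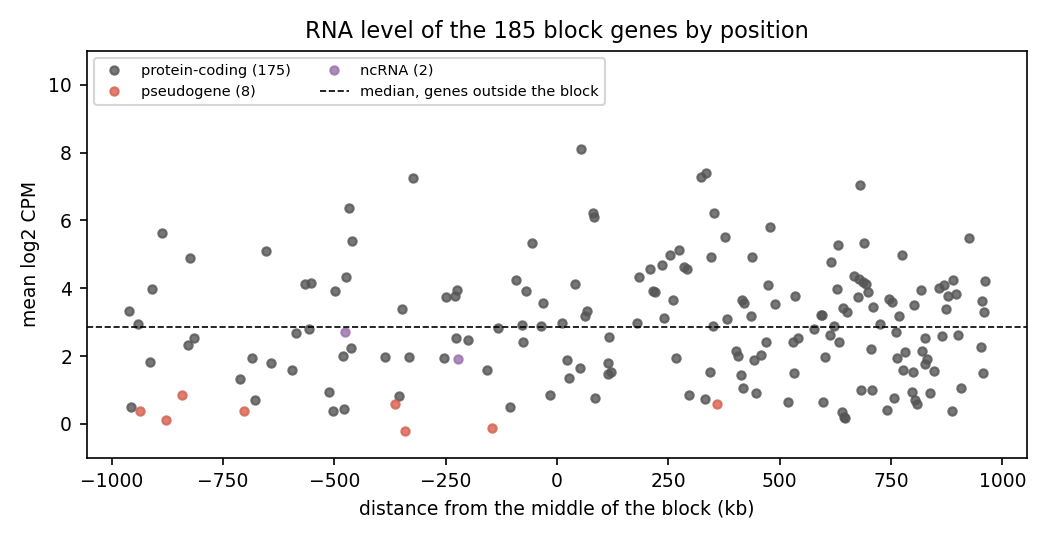
Mean log2 CPM of each of the 185 block genes (vertical axis) against its distance in kb from the middle of the block (horizontal axis, centromere side at the left). Points are single genes coloured by type, and the dashed line is the median of the genes outside the block, 2.87 log2 CPM. All but 1 of the 8 pseudogenes lie left of the middle, and the 3 highest genes, at 7.27 to 8.10 log2 CPM, lie right of it.

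The 3 highest members by mean log2 CPM were protein-coding. *MEE14* (AT2G15890), named for an embryo arrest of the mutant, averaged 8.10 log2 CPM and 7.40 log2 CPM per kb. *ROC3* (AT2G16600), a cyclophilin with peptidyl-prolyl isomerase activity, averaged 7.39 log2 CPM and 6.98 log2 CPM per kb. AT2G16586, an uncharacterised protein, averaged 7.27 log2 CPM and 7.09 log2 CPM per kb, so it ranks above *ROC3* once length is taken into account. The 3 lowest were pseudogenes, AT2G15060 at -0.22, AT2G15410 at -0.11 and AT2G14180 at 0.12 log2 CPM.

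RNA polymerase and silencing-related genes were among the members. Their list is broad, and takes in a target of silencing, *SDC*, and enzymes whose annotation names no part in silencing. Of the 10 loci of this list in the block, 8 had a value, with a median of 1.93 log2 CPM per kb, against 1.93 for the genes outside the block. *MSI2*, a WD-40 protein of the MSI1 family of histone-binding proteins, had the highest level of these per kb (2.99 log2 CPM per kb). *NERD*, a protein with GW repeats and a PHD finger that acts in a branch of small RNA silencing, had 2.54 log2 CPM per kb. *SQN*, the cyclophilin that promotes Argonaute 1 activity, had 2.36, and *NRPB3*, a subunit shared by RNA polymerase II and the plant polymerases IV and V, had 1.82 log2 CPM per kb. *EMB2763*, of the ribonuclease II family, had 1.96, AT2G17930, a kinase-like protein with a FAT domain, 1.89, and AT2G17970, a 2-oxoglutarate-dependent oxygenase, 1.02 log2 CPM per kb. The SET domain gene *SDG37* was the lowest with 0.23 log2 CPM per kb. *NRPE3B*, a paralog of *NRPB3*, and *SDC*, an F-box gene known to be silenced by non-CG DNA methylation at repeats in its promoter, had no value in the table. The annotated span of *SDC* overlaps that of the member AT2G17695, so their reads may not have been separable. The missing value of *SDC* is therefore not read as absence of its RNA.

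Defence genes spread widely on the same scale, between 0.05 and 3.94 log2 CPM per kb. Of 10 immune receptor and defence loci 7 had a value, with a median of 1.65 log2 CPM per kb. *LURP1*, a gene induced on pathogen infection, stood highest with 3.94 log2 CPM per kb. *LYM2*, a LysM protein that binds chitin, had 2.67, and *PRB1*, a basic relative of PR1, had 2.00 log2 CPM per kb. The receptor-like protein *RLP19* had 0.07 and the TIR-NBS-LRR resistance gene AT2G16870 had 0.05 log2 CPM per kb, while a second such gene, AT2G14080, had 0.93. *MLO8*, a membrane protein of the MLO family, had 1.65. Its relative *MLO7* and the resistance genes AT2G17050 and AT2G17060 had no value.

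Stress and signalling genes covered most of the range. Of 10 loci 9 had a value, with a median of 2.01 log2 CPM per kb. *COR413-PM1*, a cold-regulated membrane protein, had 5.98 log2 CPM per kb, *ERD7*, a dehydration-induced gene, 3.32, and *CSP3*, a cold shock domain protein, 3.03. *ADC1*, arginine decarboxylase of the polyamine pathway, had 3.09 log2 CPM per kb. *IRE1A*, a sensor of unfolded proteins in the endoplasmic reticulum, had 2.01, the calcium-dependent kinase *CPK6* 1.90, the histidine kinase *HK1* 1.63 and the haemoglobin *HB1* 1.48 log2 CPM per kb. The glucosyltransferase *UGT73B5* had -0.75 log2 CPM per kb. Its annotated span overlaps that of *UGT73B4*, which had no value, so reads of the pair may not have been separable.

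All 7 loci of the chloroplast and nitrite reductase list had a value, with a median of 2.33 log2 CPM per kb. *NIR1*, which reduces nitrite to ammonium in plastids, had 4.19, and *TIC21* and *TOC132*, of the chloroplast import machinery, had 3.76 and 2.76 log2 CPM per kb. The thioredoxin *ATHM3* had 2.33, the plastid division gene *PDV2* 1.81, AT2G15690, a repeat protein, 1.40, and *OTP51*, an organelle splicing factor, 0.41 log2 CPM per kb. Of 7 sterol, lipid and wall genes 5 had a value, with a median of 3.23 log2 CPM per kb. *KCS8* and *KCS9*, of the family that elongates very long chain fatty acids, had 6.27 and 3.23, the arabinogalactan protein *AGP9* 5.57, *LTP*, a lipid transfer protein, 1.91, and *HMG2*, a reductase at the head of isoprenoid synthesis, -0.19 log2 CPM per kb. *XTH10* and *CYP51G2* had no value. Of 5 developmental regulators none had a value. They were *WUS* of the shoot meristem, the pollen and anther genes *AMS* and *DAZ1*, *BZIP27*, and *AGL44*, a MADS-box gene of the root response to nitrate.

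The block held a larger part of the *ago4* lists than of the *nrpe1* lists. In *ago4* it held 20 of 215 listed DMRs (9.30%, 95% Wilson interval 6.10 to 13.9) in replicate 1, 18 of 265 (6.79%, 4.34 to 10.5) in replicate 2 and 15 of 207 (7.25%, 4.44 to 11.6) in replicate 3. In *nrpe1* it held 0 of 50 (Wilson interval 0 to 7.13) in replicate 1, where 3 unseen DMRs would be a share of up to 6%, 6 of 176 (3.41%, 1.57 to 7.24) in replicate 2 and 2 of 65 (3.08%, 0.848 to 10.5) in replicate 3. Every *ago4* list was above every *nrpe1* list, although the counting intervals of single lists overlap. Intervals and limits cover counting error only. The shares averaged 7.78% ± 1.34 in *ago4* and 2.16% ± 1.88 in *nrpe1* (SD, n = 3 each). The difference, *ago4* minus *nrpe1*, was 9.30, 3.38 and 4.17 percentage points within replicate numbers 1, 2 and 3, with a mean of 5.62 ± 3.21 (SD, n = 3). A two-sided exact sign-flip test gave p = 0.25, the smallest that 3 pairs allow, so this test could not reach 0.05. As the block was proposed with an excess of *ago4* DMRs in this part of chromosome 2 already known, the difference is a description. The lists also differ in length, and the part of list length in the difference was not tested.

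**Figure D2:**
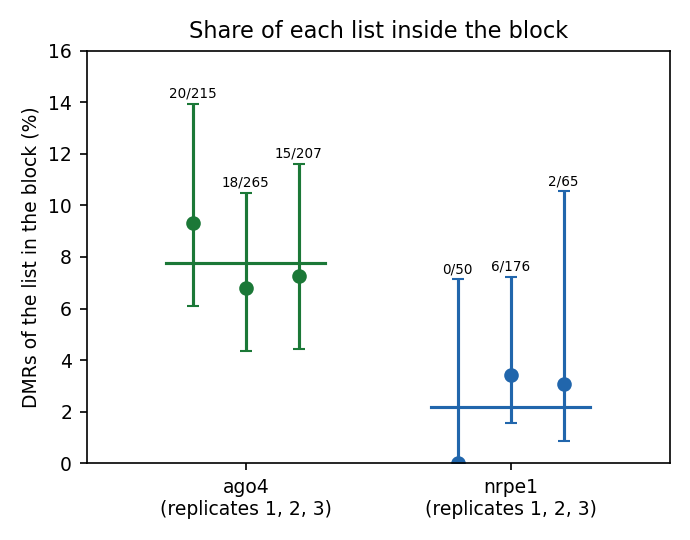
Percentage of each list's DMRs that lie in the block (vertical axis) for the 3 *ago4* lists (left) and the 3 *nrpe1* lists (right). Points are single lists labelled with DMRs in the block over DMRs listed, bars are 95% Wilson intervals and horizontal lines are means, 7.78% in *ago4* and 2.16% in *nrpe1*.

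Neighbouring ranges gave the setting. The centromere side range held no listed DMR in any of the 6 lists. The far side range held 4.65%, 5.28% and 5.80% of the *ago4* lists and 6%, 0.568% and 1.54% of the *nrpe1* lists in replicates 1, 2 and 3. There the groups overlapped, and the mean difference was 2.54 ± 3.38 percentage points (SD, n = 3, two-sided exact sign-flip p = 0.5). The difference between mutants was larger in the block than in the far side range only in replicate 1. The excess of the block difference over the far side difference was 10.7, -1.33 and -0.089 percentage points, with a mean of 3.08 (two-sided exact sign-flip p = 1), so the *ago4* excess was not shown to be particular to the block. These shares are not scaled to length, and the far side range spans 1.52 Mb against 1.92 Mb for the block. Per Mb, *ago4* replicates 1, 2 and 3 had 10.4, 9.36 and 7.80 DMRs in the block and 6.58, 9.21 and 7.89 in the far side range. For *nrpe1* these were 0, 3.12 and 1.04 in the block and 1.97, 0.658 and 0.658 in the far side range. In 2 Mb windows centred on the middle of the block, the window adjoining the block on the far side held 8.03% ± 1.1 of the *ago4* lists and 3.94% ± 3.54 of the *nrpe1* lists (SD, n = 3 each). In the window centred 6 Mb toward the other chromosome end the order was turned, with 7.91% ± 1.21 in *ago4* and 13.5% ± 4.75 in *nrpe1*.

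**Figure D3:**
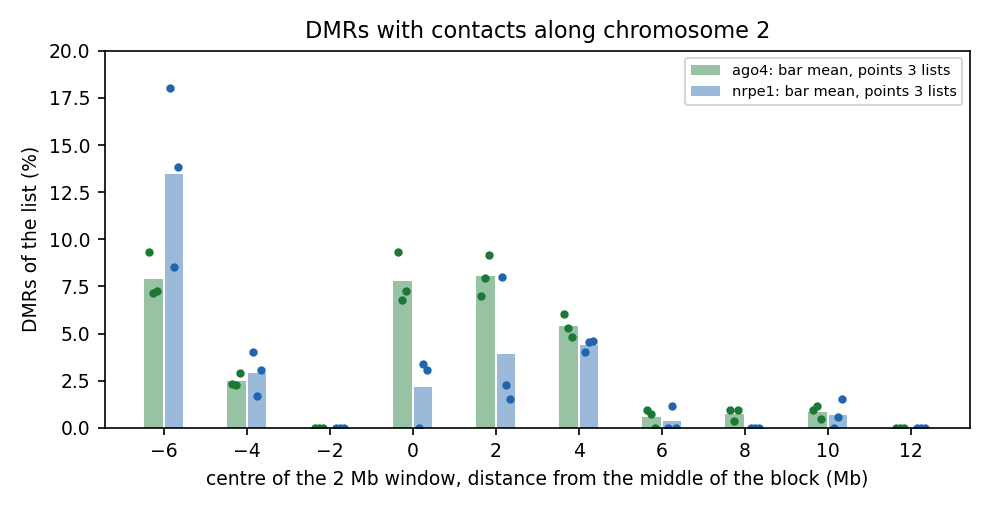
Percentage of each list's DMRs (vertical axis) in 2 Mb windows of chromosome 2, placed by the distance in Mb of the window's centre from the middle of the block (horizontal axis). For each window *ago4* stands left of *nrpe1*, bars are means and points the 3 lists. The window at 0 holds 7.78% of the *ago4* lists and 2.16% of the *nrpe1* lists on average, and the window at -2 holds none.

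The listed DMRs of the block were seldom the same in both mutants. Of the 40 different DMRs, 35 were in an *ago4* list and 7 in an *nrpe1* list, with 2 in both. Neighbours that overlap a common window of 250 bp were counted as separate DMRs, although the same contact could list both. Besides the pair at 7155362 and 7156163, these were the pairs starting at 6658434 and 6658913 and at 7814085 and 7814932. Of the block's *ago4* DMRs 5.71% were also in an *nrpe1* list, against 26.4% of the 398 *ago4* DMRs elsewhere. With 7 *nrpe1* DMRs in the block against 35 in *ago4*, that share was bound to be low, so it is not a separate result. Of the block's *nrpe1* DMRs 28.6% were also in an *ago4* list, against 50.5% of 208 elsewhere, a share that rests on those 7 DMRs. Replicates of one mutant shared a part of their DMRs too. In *ago4*, 7 block DMRs were in both replicates 1 and 2, 5 in replicates 1 and 3, and 10 in replicates 2 and 3, the last being 55.6% of replicate 2 and 66.7% of replicate 3. Of the block's 35 *ago4* DMRs 11.4% were in all 3 lists, against 17.6% elsewhere. The *nrpe1* lists of replicates 2 and 3 had 1 block DMR in common. Most DMRs of the block lay between genes, 30 of 40 (75%), against 72.1% elsewhere.

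**Figure D4:**
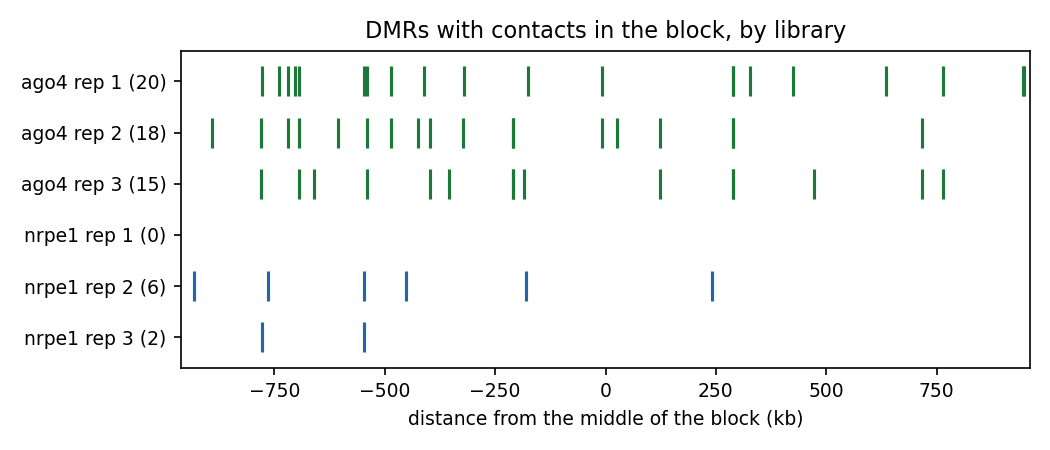
Position of each listed DMR in the block (horizontal axis, distance in kb from the middle of the block, centromere side at the left) in the 3 *ago4* libraries (upper rows) and the 3 *nrpe1* libraries (lower rows), 1 tick per DMR. The number in brackets is the count of DMRs, 15 to 20 in *ago4* and 0 to 6 in *nrpe1*, and ticks that line up between rows are DMRs shared by libraries.

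Over the lists of a mutant together, more different DMRs lay in the centromere side bins of the block, where pseudogenes are also more frequent. This did not extend beyond the block, since the centromere side range has 375 pseudogenes and held no listed DMR. Whether the mappability filter of the study removed regions there was not tested. By 500 kb bin of the block outward, 12, 12, 6 and 5 different *ago4* DMRs and 4, 2, 1 and 0 different *nrpe1* DMRs were listed. Single lists were less even, with 8, 4, 4 and 4 DMRs in *ago4* replicate 1, 7, 7, 3 and 1 in replicate 2, and 4, 5, 4 and 2 in replicate 3. For *nrpe1* the order rests mostly on replicate 2, with 3, 2, 1 and 0 DMRs. Replicate 3 had 2, 0, 0 and 0, and replicate 1 had none. Of the 40 block DMRs, 4 overlapped a pseudogene and 30 lay between genes. The 4 DMRs in all 3 *ago4* lists lay 2 in the innermost bin and 2 in the bin from 6.9 to 7.4 Mb. The DMR at 6172578 overlaps AT2G14510, a protein-coding gene with no value in the table, and its nearest member was AT2G14475, 7558 bp away, at 0.38 log2 CPM. The DMR at 6328110 lies between genes, and its nearest member was *APK*, an adenosine-5′-phosphosulfate kinase of sulfate assimilation, 12063 bp away, at 4.14 log2 CPM. The other 2 lie side by side, at 7155362 to 7156036 and 7156163 to 7157253, and overlap a common window of 250 bp. The first of them lies 1932 bp before the start of *ADC1*, and the second overlaps AT2G16505, with the nearest member, AT2G16510, 1738 bp away at 4.56 log2 CPM. Of the 7 *nrpe1* DMRs, those starting at 5934236, 6103624, 6415167, 6686772 and 7109385 were in replicate 2 alone and in no *ago4* list. The DMR at 6089546 was in *nrpe1* replicate 3 and *ago4* replicate 1.

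Few members had a listed DMR in front of them. Within 2500 bp upstream of the gene start, the longer of the promoter distances in the study, used there for AGO4 binding, 3, 4 and 5 members had a DMR of the *ago4* list in replicates 1, 2 and 3, against 0, 2 and 0 members for *nrpe1*. The groups did not overlap. The counts averaged 4 ± 1 in *ago4* and 0.667 ± 1.15 in *nrpe1* (SD, n = 3 each), with a mean difference of 3.33 ± 1.53 members within replicate numbers (SD, n = 3, two-sided exact sign-flip p = 0.25, the smallest possible). Within 1000 bp, the promoter length the study used for contacts, it was 1, 3 and 2 members for *ago4* against 0, 1 and 0 for *nrpe1*, so that the groups met at 1, and the mean difference was 1.67 members. Over all 16604 genes with a position, the *ago4* lists also had more genes with a DMR within 2500 bp upstream, 75, 123 and 97, against 21, 69 and 32 for the shorter *nrpe1* lists. Per 100 listed DMRs the block had 1.40, 1.51 and 2.42 such members in *ago4* and 0, 1.14 and 0 in *nrpe1*. Over the 3 lists together, 8 of the 185 members (4.32%) had an *ago4* DMR upstream, against a background of 1.03% of those 16604 genes and 10 of 251 genes (3.98%) in the far side range. For *nrpe1* it was 2 members (1.08%), against a background of 0.500% and none of the far side genes. These counts and the shares above come from the same DMRs and are not separate results.

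*ADC1* was the only member with an upstream DMR in all 3 *ago4* lists. Of the other 7, *ARI2*, of the RING/U-box superfamily, had one 63 bp before its start in *ago4* replicates 2 and 3, and AT2G17540 had one 1014 bp before its start in replicates 1 and 3. The remaining 5 each had an upstream DMR in 1 *ago4* list. They were *OTP51* and AT2G15830, which share 1 DMR between them, *UBC23*, a ubiquitin-conjugating enzyme, and the ribosomal protein gene AT2G16930, which share another, and the glutamate receptor gene *GLR2*. In *nrpe1* replicate 2, the pseudogene AT2G14090 had a DMR 2427 bp and AT2G16405, a WD40 repeat protein gene, 296 bp before the start. *ARI2* and the genes given after it were singled out with their values in view. The 8 members with an *ago4* DMR upstream had a median of 0.98 log2 CPM per kb, with a range of -1.36 to 3.98, against 1.91 log2 CPM per kb for the other 177 members, a description without a test.

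The distance of members to listed DMRs follows the density of DMRs in the block and is given as a description. The median distance to the nearest DMR of any *ago4* list was 18406 bp for the members and 167836 bp for other genes, and 58 members (31.4%) were within 10 kb, against 5.79% of other genes. The 251 genes of the far side range were close to the members in this, with a median of 25517 bp and 25.1% within 10 kb. For *nrpe1* the median was 131435 bp for members and 332746 bp for other genes, and 8 members (4.32%) were within 10 kb, against 3.11% of other genes and 3.98% of the far side genes. The 58 members within 10 kb of an *ago4* DMR had a median level of 1.65 log2 CPM per kb, and the 127 farther away had 1.96 log2 CPM per kb. Of the polymerase and silencing-related loci without a value, the silencing target *SDC* lay 48549 bp from the nearest *ago4* DMR and 202956 bp from the nearest *nrpe1* DMR. *NRPE3B* lay 20517 bp from the nearest *ago4* DMR and 25674 bp from the nearest *nrpe1* DMR.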

How the data were processed

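RNA was depleted of rRNA by the authors, aligned to TAIR10 with Tophat (TopHat2 per the labels) and compared between *ago4* and Col-0 with edgeR. From the deposited table only the mean log2 CPM was used, which is 1 value per gene over all libraries. Its other columns hold the authors' fold changes and p-values and were not used. The table has 3 entries that name no gene (reads in no feature 2.22%, ambiguous 1.02% and aligned more than once 57.4% of the summed CPM, with 39.3% in genes), which were not counted as genes. They are part of the total to which CPM was scaled, so gene levels are lower than on reads in genes alone. Levels per kb were divided by the merged exon length of the TAIR10.1 annotation, in which 16604 of 16755 genes had a position.

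Hi-C reads were mapped by the authors to TAIR10 with Bowtie, keeping unique ends, and contacts were called between windows of 250 bp. The deposited lists give the chromosome, start and end of each DMR with contacts. Per the methods, highly scoring interactions were used between replicates unless noted otherwise, a lower cutoff served for promoters and DMRs, and regions were filtered for mappability. Which cutoff the lists carry is not stated, and 12 further columns of the lists were not used. Starts were read as counted from 1 and may be off by 1 base. A DMR was in the block if it overlapped the span of the members, and upstream if it overlapped the 2500 bp before a gene start. Shares and counts were compared within replicate numbers by exact sign flips (two-sided), in place of the parametric paired test of the study, since the groups hold 3 lists each. Wilson intervals are at 95%, and a count of 0 was read as allowing up to 3 DMRs. Members and gene lists were chosen with earlier results of these data known. Genes named were the 3 highest and 3 lowest members, those with an upstream DMR in all 3 *ago4* lists, those nearest to a DMR in all 3 *ago4* lists, and the genes of 6 lists, those without a value by name only. Other members with an upstream DMR were named after their values were known. DMRs named were those in all 3 *ago4* lists or in any *nrpe1* list. Overlap counting was tested on simulated data. Python 3.11.15, numpy 2.4.6, scipy 1.17.1 and matplotlib 3.10.9 were used.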

Additional observations from a re-analysis of the deposited data

How the results depend on the processing

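The mean difference in the share of the lists inside the block, *ago4* minus *nrpe1*, kept its direction under all alternatives run. It was 5.90 percentage points with a fixed span of 6 to 8 Mb, 5.37 without the outermost 100 kb at each end, 5.64 without DMRs longer than 2000 bp, and 14.1 as a share of the chromosome 2 DMRs, an alternative chosen after seeing the data. Placing DMRs by their midpoint left it at 5.62. Merging DMRs that start in the same bin of 250 bp also left it at 5.62. Neighbours that overlap a common bin but start in different bins, such as those at 7155362 and 7156163, were not merged. The dependence on shared bins was therefore not tested. Leaving out 1 replicate number gave 3.78 to 6.74, the lowest without replicate 1. Members with an upstream DMR differed by 1.67 at 1000 bp, 5.67 at 5000 bp and 7.33 with either side counted, and by 2.5 to 4 without 1 replicate number. Without the replicate block, exact permutation of the 6 lists gave p = 0.1 for both, the smallest that 3 against 3 allow. Same-numbered libraries of the mutants had correlations of 0.159, 0.111 and -0.005 over the 541 DMRs found in any list. Other-numbered libraries had -0.168 to 0.058. Only listed DMRs entered, so these values cannot decide whether replicate numbers pair the libraries. The block median minus the median of the other genes was -0.06 log2 CPM, and 0.0064 with protein-coding genes only, where the sign turned; the cause was not tested. Per kb of exon, added after seeing the data, it was -0.02. The short *nrpe1* lists, of 50 to 176 DMRs, limit precision.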
